A study of Rattus norvegicus with 11 samples.

Results

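Podoplanin (Pdpn), caveolin-1 (Cav1), the receptor for advanced glycation end products (Ager), the A-kinase anchor Akap5 and the adhesion molecule Icam1 are membrane proteins used as markers of the alveolar type I cell. They were followed across 11 Affymetrix rat arrays to see which of them type II cells gained in culture and which they did not. Members were all probe sets that the annotation gave to exactly 1 gene with one of these 5 symbols. This gave 6 probe sets, 1 per gene and 2 for Icam1, out of 8740 probe sets and 4736 genes measured. RNA came from 3 samples of type II cells on day 7 of culture (cultured TII), 4 of freshly isolated type I cells (fresh TI) and 4 of freshly isolated type II cells (fresh TII), with 1 array per sample. The fresh cells are day 0. The labels name rat as the organism and give no strain, age or culture conditions, and no genotype or agent sets the groups apart. They do not state whether samples within a group were taken from different rats, so a p-value here reflects the spread of these arrays alone. Groups were read from the sample descriptions and titles, since the source field names TI cells on every array.

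Type I cells are the thin, flat cells across which the lung exchanges gas, and type II cells are the cuboidal cells that make surfactant and can give rise to type I cells after injury. Type II cells kept on plastic flatten and take on some type I features, which is why they are used as a model of that transition. Podoplanin is a mucin-type glycoprotein tied to the actin cytoskeleton through ezrin and moesin. Akap5 holds protein kinase A, protein kinase C and calcineurin at the plasma membrane. Ager (RAGE) is an immunoglobulin-family receptor for S100 proteins, HMGB1 and other ligands, and the lung is known for high levels of it. Icam1 binds the integrins of leukocytes and is induced through NF-kappaB and interferon-gamma. Caveolin-1 is the structural protein of caveolae, the flask-shaped pits that are dense in type I cells.

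The sequences just upstream of the starts are shown for the markers with the most and the least gain in culture, Pdpn and Akap5 on one side and Cav1 on the other. Each is the 250 bases before a RefSeq transcript start in the GRCr8 assembly, 5′ to 3′ on the strand of the gene, and Cav1 has 2 annotated starts. The regions are chr5:160918960-160919209 on the minus strand for Pdpn, chr6:100786919-100787168 on the plus strand for Akap5, and chr4:46606288-46606537 and chr4:46607722-46607971 on the plus strand for Cav1. Capitals mark matches to the searched motifs on either strand.
Pdpn: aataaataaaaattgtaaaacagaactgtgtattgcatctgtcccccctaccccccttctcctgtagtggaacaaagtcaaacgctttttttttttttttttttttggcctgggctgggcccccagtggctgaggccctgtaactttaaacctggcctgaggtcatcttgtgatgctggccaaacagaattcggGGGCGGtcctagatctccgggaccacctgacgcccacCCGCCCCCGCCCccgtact
Akap5: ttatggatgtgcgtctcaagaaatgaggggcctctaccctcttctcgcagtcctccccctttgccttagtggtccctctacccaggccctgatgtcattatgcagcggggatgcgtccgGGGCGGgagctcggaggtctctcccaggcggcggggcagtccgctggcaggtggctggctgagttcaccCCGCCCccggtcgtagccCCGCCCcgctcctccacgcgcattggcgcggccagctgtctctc
Cav1, upstream start: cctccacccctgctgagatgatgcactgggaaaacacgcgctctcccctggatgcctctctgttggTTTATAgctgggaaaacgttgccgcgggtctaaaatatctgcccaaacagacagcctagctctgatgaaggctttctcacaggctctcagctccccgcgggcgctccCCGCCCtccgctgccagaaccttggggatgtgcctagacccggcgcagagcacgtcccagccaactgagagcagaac
Cav1, downstream start: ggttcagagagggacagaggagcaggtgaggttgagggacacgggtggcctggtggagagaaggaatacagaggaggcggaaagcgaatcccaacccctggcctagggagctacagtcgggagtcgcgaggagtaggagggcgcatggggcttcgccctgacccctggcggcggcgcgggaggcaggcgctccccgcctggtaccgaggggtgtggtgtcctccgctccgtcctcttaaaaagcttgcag

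The motifs searched on both strands were the GC box GGGCGG, the TATA box TATAAA, the AP-1 site TGANTCA, the cyclic AMP response element TGACGTCA, the TEAD site GGAATG and the interferon-gamma activated site TTCNNNGAA. All 5 genes had a window in the RefSeq promoter table, 6 windows in all. Pdpn had 3 GC boxes, starting 56, 19 and 13 bases before the start, and Akap5 had 3, at 131, 62 and 44 bases. The upstream Cav1 window held 1 GC box at 77 bases and a TATA box at 184 bases, and the downstream Cav1 window held none of the 6 motifs, as did the Ager window. The Icam1 window held 2 GC boxes at 247 and 82 bases, a TATA box at 53, a TEAD site at 132 and an interferon-gamma activated site at 107. Over all 33469 windows of this length, a GC box was present in 30.5%, a TATA box in 12.9%, an AP-1 site in 6.34%, a cyclic AMP response element in 1.59%, a TEAD site in 12.1% and an interferon-gamma activated site in 7.67%. These matches describe the letters of the windows and were not set against any measurement of binding.

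Signal is given on the log2 scale of the deposited table, so a difference of 1 is a 2-fold difference. Array medians lay between 5.43 and 5.51. Arrays within a group correlated over all probe sets at Pearson r of 0.986 to 0.993 for cultured TII, 0.978 to 0.996 for fresh TI and 0.995 to 0.998 for fresh TII. As a check of the labels, the surfactant gene Sftpc read 5.04 to 5.24 on cultured TII arrays, 10.73 to 12.51 on fresh TI arrays and 12.995 to 13.163 on fresh TII arrays, so fresh TI isolates kept a strong type II signal. Of 14 measured type II markers, 13 were lower and 1 higher in fresh TI than in fresh TII cells (median -1.58), and 12 were lower and 1 higher in cultured than in fresh TII cells (median -3.11). Among all 4736 genes, 21.2% were lower and 33% higher in the first of these comparisons, and 14% lower and 20.5% higher in the second. In bulk RNA such as this, a change in the share of cells of a type and a change in RNA per cell cannot be told apart.

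All 6 marker probe sets were higher in fresh TI than in fresh TII cells, and none of them overlapped between those groups. A probe set is called when its adjusted p is under 0.05 in limma, fitted to all 11 arrays and adjusted by the Benjamini-Hochberg method over all 8740 probe sets. In this comparison 54.7% of all probe sets were called in either direction and 34.3% were called higher in fresh TI cells, while 50.7% did not overlap in either direction and 31.3% lay wholly higher. In culture, 5 of the 6 were called higher than in fresh TII cells, against 33.4% of all probe sets called in either direction and 19.1% called higher. Of the 6, 3 did not overlap between cultured and fresh TII arrays, all higher, against 43.3% of all probe sets in either direction and 22.7% higher. All 6 were called lower in cultured TII than in fresh TI cells, where 59.9% of probe sets were called and 35.7% were called lower, and 5 of the 6 did not overlap, against 57.3% of probe sets in either direction and 34.1% lower. The median difference over all probe sets was 0.12 for fresh TI minus fresh TII, -0.01 for cultured minus fresh TII and -0.13 for cultured TII minus fresh TI, and the marker differences below can be read against these. The comparisons share arrays: both comparisons with fresh TII cells use the same 4 fresh TII arrays.

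**Figure D1:**
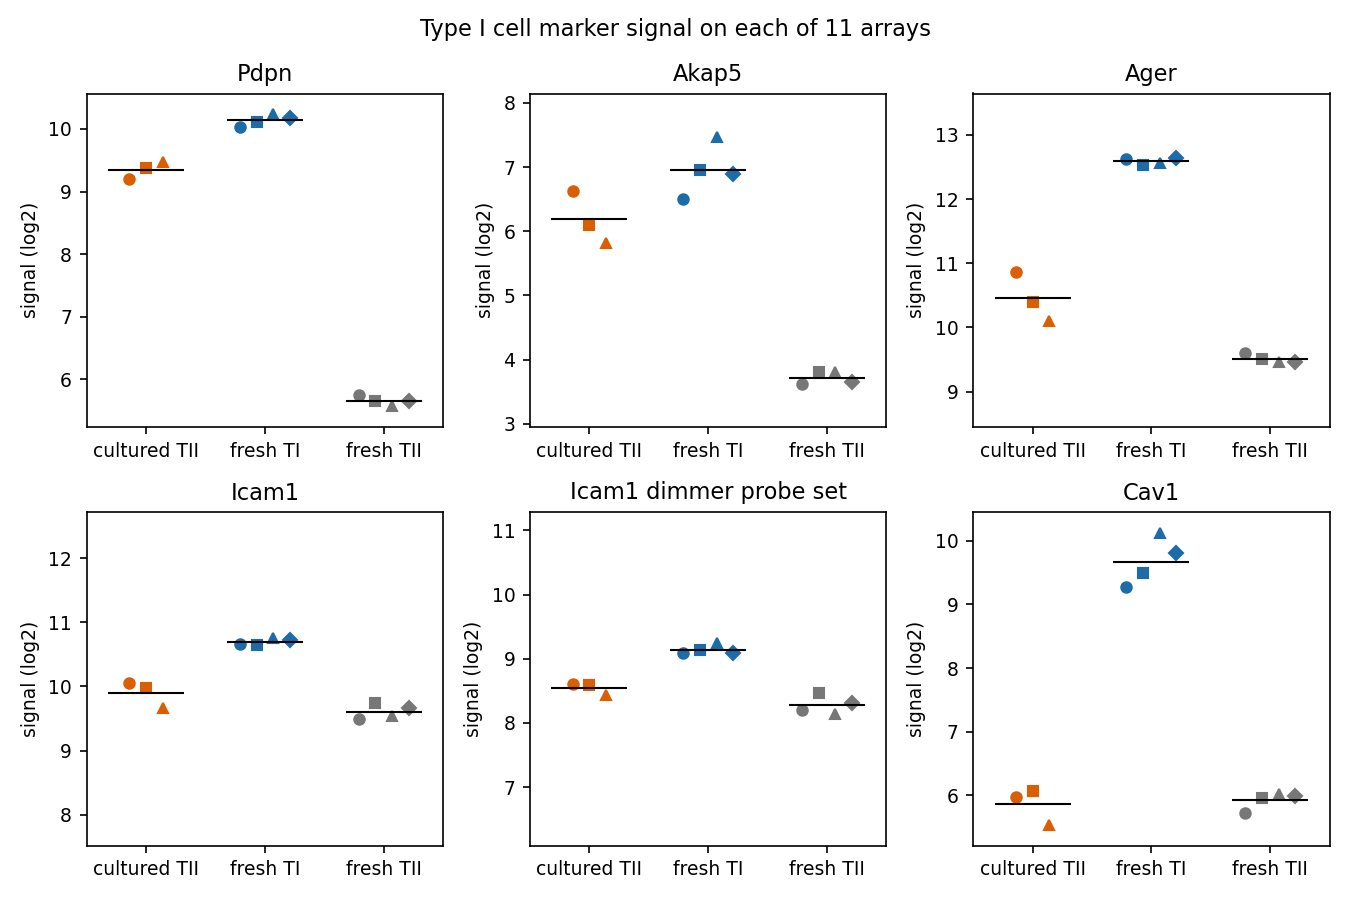
Log2 signal (vertical axis) of each marker probe set on each of the 11 arrays, by group; circles, squares, triangles and diamonds are arrays 1 to 4 of a group and the bars are group means. Pdpn reads 9.20 to 9.47 in cultured TII, 10.03 to 10.23 in fresh TI and 5.57 to 5.75 in fresh TII cells, while cultured and fresh TII cells overlap for Cav1 at 5.54 to 6.07 and 5.72 to 6.02.

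Pdpn (Entrez gene 54320) showed the widest gain of the 5 markers. Its signal was 9.20, 9.37 and 9.47 on the cultured TII arrays, 10.03, 10.12, 10.23 and 10.17 on the fresh TI arrays, and 5.75, 5.66, 5.57 and 5.65 on the fresh TII arrays. Every cultured array lay between the fresh groups, close to the fresh TI arrays, and no groups overlapped. Fresh TI exceeded fresh TII cells by 4.48 ± 0.08 (log2, SE; n = 4 and 4), or 22.3-fold (adjusted p = 1.1e-12 in limma), the 3rd largest positive difference of the 8740 probe sets. Cultured exceeded fresh TII cells by 3.69 ± 0.08 (n = 3 and 4), or 12.9-fold (adjusted p = 1.06e-11 in limma), which ranked 14th. Cultured TII cells still read below fresh TI cells, by a difference of -0.79 ± 0.08 (adjusted p = 6.84e-06 in limma). The Pdpn probe set carries the manufacturer's suffix for sequence shared by several transcripts, and which transcripts contributed was not tested.

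Akap5 (171026) gained the next most. Its signal was 6.63, 6.10 and 5.82 on the cultured TII arrays, 6.50, 6.95, 7.47 and 6.90 on the fresh TI arrays, and 3.62, 3.80, 3.81 and 3.64 on the fresh TII arrays. Both the cultured and the fresh TI arrays lay well above all fresh TII arrays, and cultured array 1 fell within the fresh TI range. Fresh TI exceeded fresh TII cells by 3.24 ± 0.19, or 9.43-fold (adjusted p = 3.03e-08 in limma), and cultured exceeded fresh TII cells by 2.46 ± 0.21, or 5.52-fold (adjusted p = 8.1e-07). Cultured TII minus fresh TI was -0.77 ± 0.21 (adjusted p = 0.00668 in limma). The fresh TII signals sat at the 17.5 to 19.7 percentile of all probe sets on their arrays. The table holds no detection calls, so how near these signals were to background is not known, and a fold against them may understate the difference.

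Ager (81722) gained less. Its signal was 10.86, 10.39 and 10.11 on the cultured TII arrays, 12.62, 12.53, 12.56 and 12.64 on the fresh TI arrays, and 9.61, 9.51, 9.45 and 9.46 on the fresh TII arrays. The cultured arrays stood between the fresh groups without overlap, nearer to fresh TII. Fresh TI exceeded fresh TII cells by 3.08 ± 0.12, or 8.45-fold (adjusted p = 1.11e-09 in limma). Cultured exceeded fresh TII cells by 0.945 ± 0.13, or 1.93-fold (adjusted p = 9.61e-05 in limma), and stayed below fresh TI cells by a difference of -2.13 ± 0.13 (adjusted p = 6.78e-08).

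Icam1 (25464) separated the fresh cell types by about 2-fold and moved little in culture. The brighter of its 2 probe sets read 10.05, 9.98 and 9.66 on the cultured TII arrays, 10.66, 10.64, 10.75 and 10.72 on the fresh TI arrays, and 9.49, 9.75, 9.54 and 9.66 on the fresh TII arrays. Fresh TI arrays were above all others, and cultured array 3 lay among the fresh TII arrays. Fresh TI exceeded fresh TII cells by 1.08 ± 0.09, or 2.12-fold (adjusted p = 8.74e-07 in limma), and cultured TII minus fresh TI was -0.80 ± 0.10 (adjusted p = 2.68e-05). Cultured minus fresh TII was 0.29 ± 0.10, or 1.22-fold (adjusted p = 0.0392 in limma). That small difference is unstable: over 21 alternative settings its adjusted p ran from 0.00372 to 0.424, and it was above the threshold in 12 of them, among them those without cultured array 1 or 2 and without fresh TII array 1, 3 or 4.

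The dimmer Icam1 probe set, designed from the same source sequence and so no independent gene measurement, read 8.61, 8.60 and 8.43 on the cultured TII arrays, 9.09, 9.13, 9.24 and 9.09 on the fresh TI arrays, and 8.21, 8.47, 8.13 and 8.32 on the fresh TII arrays. Its pattern matched the brighter one: fresh TI arrays stood apart and cultured array 3 overlapped fresh TII. Fresh TI minus fresh TII was 0.86 ± 0.08 (adjusted p = 3.08e-06 in limma), cultured minus fresh TII 0.26 ± 0.09 (adjusted p = 0.0364) and cultured TII minus fresh TI -0.59 ± 0.09 (adjusted p = 0.000128). The cultured minus fresh TII difference had an adjusted p above the threshold in 10 of 20 alternatives.

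Cav1 (25404) showed no detectable gain in culture. Its signal was 5.97, 6.07 and 5.54 on the cultured TII arrays, 9.28, 9.49, 10.12 and 9.80 on the fresh TI arrays, and 5.72, 5.96, 6.02 and 5.99 on the fresh TII arrays. Cultured and fresh TII arrays overlapped, and all of them lay more than 3 log2 units below every fresh TI array. Fresh TI exceeded fresh TII cells by 3.75 ± 0.17, or 13.4-fold (adjusted p = 2.31e-09 in limma), the 10th largest positive difference. Cultured minus fresh TII was -0.06 ± 0.18 (95% interval -0.45 to 0.33; adjusted p = 0.86 in limma), and without cultured array 3 it was 0.10. Cultured TII minus fresh TI was -3.81 ± 0.18 (adjusted p = 5.93e-09 in limma).

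**Figure D2:**
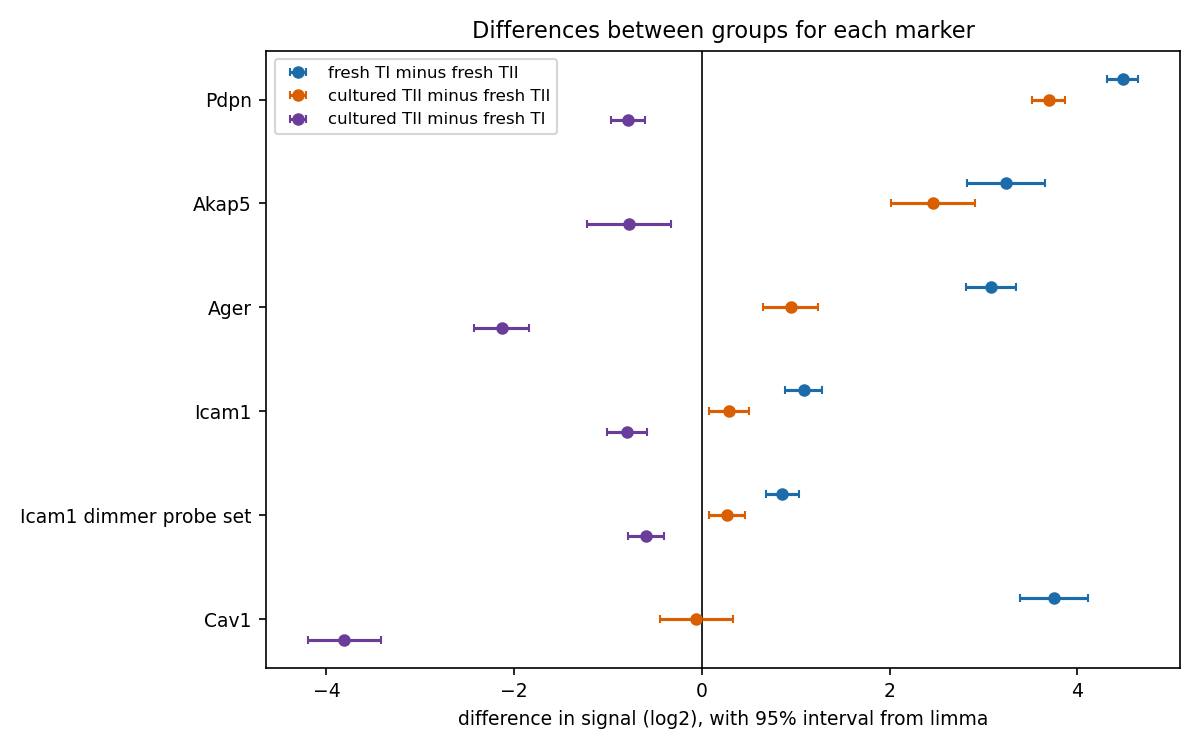
Log2 difference in signal (horizontal axis) between groups for each marker probe set, with 95% intervals from limma. Fresh TI minus fresh TII is above 0 for all 6 probe sets, cultured minus fresh TII runs between 3.69 for Pdpn and -0.06 for Cav1, and cultured TII minus fresh TI is below 0 for all 6.

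The gain of each marker was also put on the scale of its own difference between the fresh cell types, as the share of the fresh TI minus fresh TII difference that cultured TII cells held. The share was 82.4% for Pdpn (95% interval 78.7% to 86.2%; 74.0% after quantile normalization) and 76.1% for Akap5 (63.7% to 89.4%). The intervals do not cover the choice of scaling. The share was 30.7% for Ager (21.97% to 39.1%). It was 26.6% for the brighter Icam1 probe set (7.40% to 44.1%; 9.66% after quantile normalization). For the dimmer one it was 30.8% (9.07% to 50.8%; 14.2% after quantile normalization). For Cav1 it was -1.59% (-12.6% to 8.48%). The intervals of Pdpn and Akap5 overlapped each other, those of Ager and Icam1 overlapped each other, and neither pair overlapped the other. The Cav1 interval lay below that of Ager and that of the dimmer Icam1 probe set, and overlapped that of the brighter one.

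The change in culture was compared between each of the 10 pairs of genes, using the within-array difference of 2 markers and an exact permutation test of 3 cultured against 4 fresh TII arrays (two-sided). The pairs share genes and arrays, so they are not 10 separate results. Of all probe sets taken singly, 43.3% did not overlap between cultured and fresh TII arrays in either direction. The share among arbitrary pairs of probe sets was not computed, so the count of pairs has no background to be read against. The cultured and fresh arrays did not overlap for any of the 10 pairs. Each p was 0.0571, the smallest that 3 against 4 arrays allow, and also 0.0571 after adjustment over the 10 pairs, so no pair could pass 0.05 in this design. Pdpn gained more than Akap5 by 1.23, than Ager by 2.75, than Icam1 by 3.40 and than Cav1 by 3.75 (log2). Akap5 gained more than Ager by 1.52, than Icam1 by 2.18 and than Cav1 by 2.52. Ager gained more than Icam1 by 0.66 and than Cav1 by 1.005, and Icam1 more than Cav1 by 0.35. The sign of all 10 held under quantile normalization, with array medians and spreads matched, and with the mean of a gene's probe sets. It also held with each array left out, but that could not have failed, since the arrays did not overlap. Being called higher in fresh TI and in cultured TII cells than in fresh TII cells, and lower in cultured TII than in fresh TI cells, was found for 61 of 8740 probe sets (0.698%), among them those of Pdpn, Akap5, Ager and both of Icam1. The Cav1 pattern, higher in fresh TI cells with no call between cultured and fresh TII cells and lower in cultured TII than in fresh TI cells, was found for 1878 (21.5%).

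**Figure D3:**
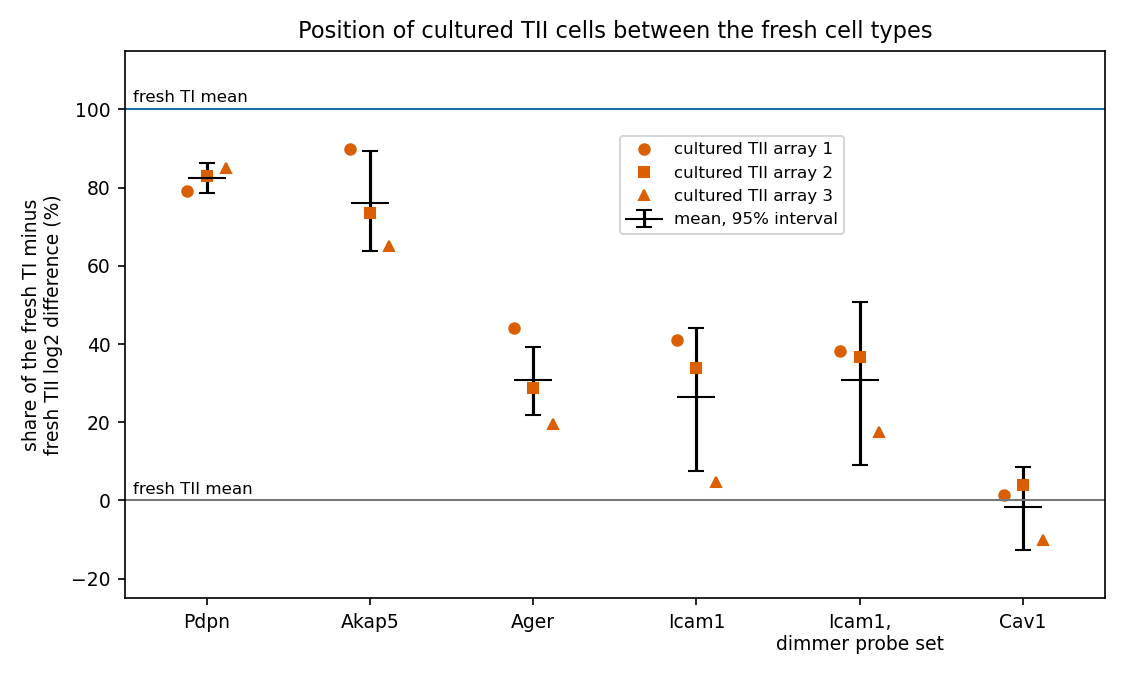
Share of the fresh TI minus fresh TII log2 difference held by cultured TII cells (vertical axis, percent) for each marker probe set, with points for the 3 cultured arrays and bars for the mean and its 95% interval. Pdpn at 82.4% and Akap5 at 76.1% stand above Ager at 30.7% and Icam1 at 26.6%, and Cav1 at -1.59% lies at the fresh TII mean.

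The cultured arrays differed among themselves, and not in the same way for every marker. Cultured array 1 was the highest of the 3 for Akap5, Ager and Icam1 and the lowest for Pdpn. Its shares were 89.9% for Akap5, 44.0% for Ager and 41.1% for Icam1, against 79.2% for Pdpn. Cultured array 3 was the lowest for Akap5, Ager, Icam1 and Cav1, with shares of 65.1%, 19.5%, 4.63% and -10.2%, and the highest for Pdpn, with 85.1%. The SD among the cultured arrays was 0.41 for Akap5, 0.38 for Ager and 0.28 for Cav1, above those of 96.5%, 95.9% and 92.1% of all probe sets. It was 0.21 for Icam1 and 0.13 for Pdpn, where the median over all probe sets was 0.10. Among fresh TI arrays the spread was narrow for Ager (SD 0.05), Icam1 (0.05) and Pdpn (0.09) and wide for Akap5 (0.40) and Cav1 (0.37), whose lowest and highest fresh TI arrays were the same ones, arrays 1 and 3.

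Signs of RNA quality and of other cells moved with some of these comparisons. For beta-actin, the control probe sets at the 3′ end minus those at the 5′ end ran between -0.33 and -0.083 on cultured TII arrays and between 0.324 and 0.431 on fresh TII arrays (difference -0.53; exact permutation p = 0.0571, adjusted p = 0.114, two-sided). For GAPDH it ran between 0.302 and 0.451 on cultured TII arrays and between 0.474 and 0.569 on fresh TII arrays (difference -0.13; exact permutation p = 0.0571, adjusted p = 0.114). Between fresh TI and fresh TII arrays the differences were -0.04 and 0.03 (exact permutation p = 0.514 and 0.657). The part of RNA quality in the marker differences was not tested.

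Some fibroblast and smooth muscle markers were higher in both comparisons with fresh TII cells. Their mean log2 signal over 18 genes was 6.04 to 6.52 on cultured TII, 6.10 to 6.38 on fresh TI and 5.41 to 5.66 on fresh TII arrays. In cultured against fresh TII cells 6 were called higher (33.3%, against 20.5% of all genes) and 1 lower. The higher ones were led by the actin-binding gene Tagln at 5.03 ± 0.12 and the elastic fibre gene Fbln5 at 3.18 ± 0.12. The lower one was the elastin gene Eln at -0.64 ± 0.21. In fresh TI against fresh TII cells 9 were called higher (50%, against 33% of all genes) and 0 lower, led by the collagen gene Col3a1 at 2.52 ± 0.47. Col3a1 itself read 6.90, 6.85 and 4.40 on cultured TII arrays, 9.35, 10.06, 9.01 and 8.92 on fresh TI arrays, and 7.04, 6.44, 7.27 and 6.53 on fresh TII arrays. Endothelial markers, which matter here because endothelium holds caveolin-1 and Icam1, had a mean of 5.63 to 5.67 on cultured TII, 5.57 to 5.91 on fresh TI and 5.61 to 5.68 on fresh TII arrays. Of 13 such genes, 6 were higher in fresh TI than in fresh TII cells (46.2%, against 33% of all genes) and 1 was lower. Their median was 0.25, against 0.11 over all 4736 genes. The endothelin gene Edn1 differed most, at -1.71 ± 0.18 in fresh TI against fresh TII cells and 1.49 ± 0.19 in cultured against fresh TII cells. Icam2 was higher in fresh TI cells by 0.48 ± 0.07, and the adhesion gene Pecam1, expressed throughout endothelium, stood at 0.06 ± 0.07, not called. Of 5 lymphatic endothelial and mesothelial markers, fresh TI cells had 3 higher (60%, against 33% of all genes) and 0 lower. Of 13 leukocyte markers 5 were higher (38.5%, near the share over all genes) and 2 lower (15.4%). The lower ones were Cd14 and Lyz2, and Lyz2 is also on the type II list. In cultured against fresh TII cells, endothelial markers were 1 higher and 1 lower, lymphatic and mesothelial 0 and 1, leukocyte 2 and 2, and airway markers 0 and 4 of 7. Over all genes 20.5% were higher and 14% lower in that comparison. The higher leukocyte markers in culture were Fcgr2b at 1.78 ± 0.38 and Itgam at 0.57 ± 0.13. The lower ones were Lyz2, shared with the type II list, at -2.45 ± 0.35 and Aif1 at -0.46 ± 0.08. The other Aif1 probe sets were called higher, at 1.19 and 1.26. In fresh TI against fresh TII cells 3 airway markers were higher, by 0.45 or less, and 4 were lower, led by Cyp2f4 at -4.07 ± 0.09, Scgb1a1 at -3.31 ± 0.13 and Aldh1a1 at -3.09 ± 0.21. In culture these 3 stood at -4.39 ± 0.10, -2.62 ± 0.14 and -3.54 ± 0.23. The mean over the 7 airway markers was 5.45 to 5.79 on cultured TII, 5.79 to 5.94 on fresh TI and 7.17 to 7.31 on fresh TII arrays. No signal in this table is 0, and the part of these cells in the marker differences was not tested.

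Genes of the pathways around Cav1, Ager, Akap5 and Icam1 were counted in a list per marker, with 1 probe set, the brightest, standing for a gene. Over all 4736 genes, fresh TI against fresh TII cells gave 33.0% called higher and 21.2% called lower (median 0.11). In cultured against fresh TII cells 20.5% were higher and 14% lower (median -0.01), and in cultured TII against fresh TI cells 25.8% were higher and 34.2% lower. For Pdpn, single binding partners are given. Moesin (Msn), which ties podoplanin to actin, was higher by 1.86 ± 0.15 in fresh TI cells and by 1.82 ± 0.16 in culture. A second Msn probe set did not share this, at 0.14 (not called) and -0.28 (called lower). Cd9, a tetraspanin that binds podoplanin, was higher by 2.08 ± 0.12 in fresh TI cells and by 1.41 ± 0.13 in culture. Ezrin (Ezr), the other linker, went the other way, at -0.70 ± 0.17 in fresh TI cells and -0.83 ± 0.18 in culture. So did Cd82, another tetraspanin, at -0.66 ± 0.13 and -0.58 ± 0.14. The podoplanin-binding hyaluronan receptor Cd44 was lower in fresh TI cells, at -0.55 ± 0.19, and stood at -0.38 ± 0.21, not called, in culture, while 2 of its other 3 probe sets were called lower in both comparisons.

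Of 12 measured caveolar and membrane raft genes, 7 were higher and 1 lower in fresh TI than in fresh TII cells (median 0.26), 1 was higher and 1 lower in cultured than in fresh TII cells (median -0.09), and 0 were higher and 7 lower in cultured TII than in fresh TI cells (median -0.27, against -0.11 over all genes). The coat gene Cavin3 was higher by 0.58 ± 0.11 in fresh TI cells and by 0.40 ± 0.12 in culture, where its second probe set was not called at 0.28. Cav3, the muscle caveolin, stood at 0.37 ± 0.08 in fresh TI cells and, not called, at -0.20 ± 0.09 in culture. Its other probe sets read 0.06 and 0.25, and 0.21 and 0.28, the second of each called. The glucose transporter Slc2a4, found in caveolae of fat cells, stood at 0.40 ± 0.10 and, not called, at -0.05 ± 0.10, with a second probe set called at 0.34 and -0.24. Dynamin 2 (Dnm2), which pinches caveolae off the membrane, was lower in both, at -0.52 ± 0.09 and -0.45 ± 0.10, although its second probe set in culture was not called at -0.23. None of these differences was as wide as that of Cav1 between the fresh cells.

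Among 10 measured ligands and signalling genes of RAGE, 5 were higher and 1 lower in fresh TI than in fresh TII cells (median 0.30), and 3 higher and 2 lower in cultured than in fresh TII cells (median -0.07). The ligand genes S100a9 and S100a4 were higher in fresh TI cells by 1.77 ± 0.31 and 1.65 ± 0.29, and in culture stood at -0.04 ± 0.33 and 0.72 ± 0.32, neither called. The S100a9 signal was low, at means of 2.72 in cultured TII and 2.76 in fresh TII cells, and how near to background is not known. Hmgb1 was lower in fresh TI cells, at -0.97 ± 0.16. In culture Adam10, a protease that sheds RAGE from the membrane, was higher by 0.92 ± 0.12, and the ligand gene S100a1 was lower, at -0.82 ± 0.07 and on its other 3 probe sets as well. S100b differed in sign between the comparisons, at 0.57 ± 0.08 in fresh TI cells and -0.32 ± 0.09 in culture, but its second probe set was not called in either.

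The 20 measured partners of Akap5 and other A-kinase anchors showed no common direction. In fresh TI against fresh TII cells 5 were higher and 6 lower (median 0.04), and in cultured against fresh TII cells 3 were higher and 3 lower (median 0.01). The anchored kinase subunit Prkacb and the anchor Akap8 were lower in fresh TI cells, at -0.88 ± 0.11 and -0.75 ± 0.11, and a second Prkacb probe set was not called at 0.07. In culture the calcineurin subunit gene Ppp3r1 was higher by 0.72 ± 0.13 and the kinase subunit gene Prkar1a by 0.63 ± 0.09, while the calcineurin subunit gene Ppp3ca was lower, at -0.59 ± 0.11.

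Of 19 measured genes that partner Icam1 or answer to NF-kappaB or interferon-gamma as it does, 6 were higher and 6 lower in fresh TI than in fresh TII cells (median -0.12), and 4 were higher and 9 lower in cultured than in fresh TII cells (median -0.36). The neutrophil chemokine gene Cxcl3 stood at -3.91 ± 0.50 in fresh TI cells and at -7.22 ± 0.54 in culture, where its mean signal of 2.31 may likewise be near background. The invariant chain gene Cd74 stood at -1.90 ± 0.29 and -3.62 ± 0.32, and the transcription factor gene Irf1 at -2.16 ± 0.16 and -2.47 ± 0.18. Nfkbia, the inhibitor that NF-kappaB induces against itself, stood at -1.06 ± 0.13 and -2.86 ± 0.14. The monocyte chemokine gene Ccl2 went the other way in culture, higher by 3.09 ± 0.22, and the receptor gene Ifngr1 was higher by 0.84 ± 0.13 in fresh TI cells and by 0.76 ± 0.14 in culture. The cytokine gene Il1b was higher by 1.58 ± 0.21 in fresh TI cells, as Icam1 was, and stood at -1.26 ± 0.23 in culture, where 1 of its other 2 probe sets was not called. In culture 47.4% of this list was called lower and 21.1% higher, against 14% and 20.5% of all genes. In fresh TI against fresh TII cells 31.6% was called in each direction, against 21.2% lower and 33% higher over all genes.

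**Figure D4:**
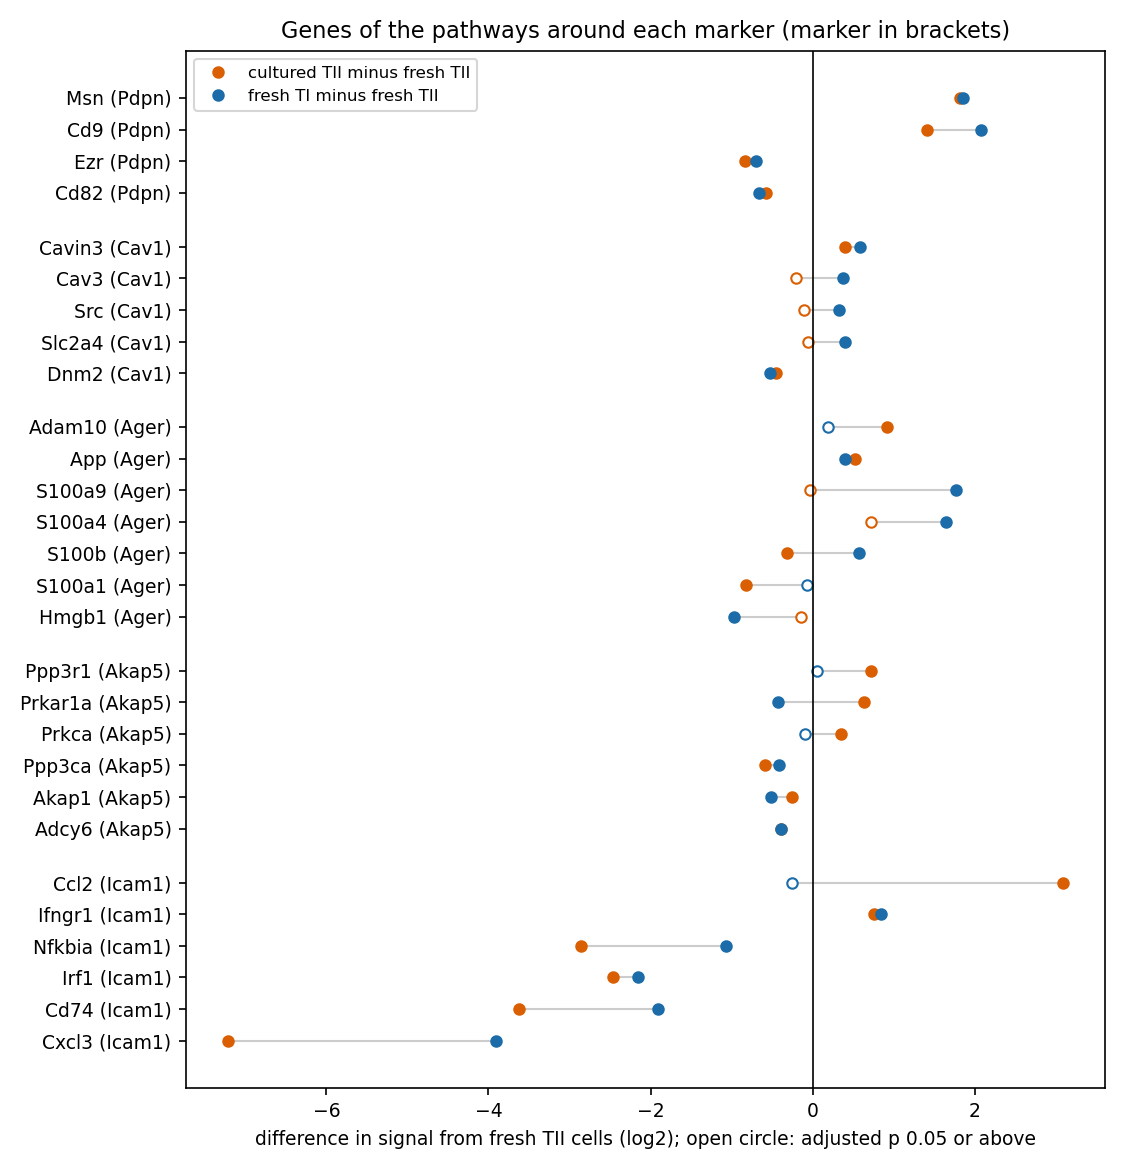
Log2 difference from fresh TII cells (horizontal axis) for genes of the pathway around each marker, in cultured TII cells and in fresh TI cells; open circles have an adjusted p of 0.05 or above. Msn lies near 1.8 in both groups, and Cxcl3 at -7.22 in culture and -3.91 in fresh TI cells.

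Of 16 other measured type I markers, 11 were higher and 2 lower in fresh TI than in fresh TII cells (median 0.945), 8 were higher and 4 lower in cultured than in fresh TII cells (median 0.63), and 3 were higher and 9 lower in cultured TII than in fresh TI cells (median -0.45). They too split by how much culture gained. The water channel Aqp5 was higher by 4.30 ± 0.23 in fresh TI cells and by 1.03 ± 0.25 in culture, where its second probe set was not called at 0.55. The proteoglycan Spock2 was higher by 4.70 ± 0.19 and 2.04 ± 0.21. The growth factor binding protein Igfbp6 was higher by 2.47 ± 0.16 in fresh TI cells and stood at -0.41 ± 0.17, not called, in culture. The cell cycle inhibitor Cdkn2b and the protease inhibitor Timp3 were higher in culture by 3.42 ± 0.12 and 3.16 ± 0.10, more than in fresh TI cells (1.64 ± 0.11 and 0.94 ± 0.09). Sec14l3 and Cyp4b1 fell in culture, at -4.07 ± 0.33 and -3.44 ± 0.19, although they were higher in fresh TI cells by 1.03 ± 0.30 and 0.48 ± 0.18.

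The genes whose signal most resembled each marker were taken by Pearson r over the 11 arrays, among 680 genes whose group means spanned at least 1 log2 unit. The arrays fall into 3 groups, so r mostly reflects the relative positions of the group means, as the shares above do. It is given as a description. For Pdpn they were Nudt4 (r = 0.995), Cryab (0.992), Capn2 (0.988) and Timp2 (0.986), and for Akap5 they were Cryab (0.990), Cadm1 (0.987), Nudt4 (0.985) and Capn2 (0.982). These markers therefore shared 3 of their 4 nearest genes. Cryab, a small heat shock protein, differed by 3.93 in fresh TI and 3.20 in cultured TII cells from fresh TII cells, and the protease Capn2 by 2.48 and 1.86.

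Ager was nearest to Aqp5 (r = 0.995), Tpm3 (0.991), Spock2 (0.990) and Pdlim3 (0.983), and Icam1 to Aqp5 (0.987), Pakap (0.975), Pdlim3 (0.975) and Spock2 (0.973), again with 3 in common. Aqp5 read 8.09, 7.21 and 6.55 on cultured arrays 1, 2 and 3, in the same order as Ager and Icam1. Cav1 was nearest to Olfm1 (r = 0.989), Akr1d1 (0.978), Nnat (0.976) and Kank2 (0.973), none of them near another marker. All 4 were higher in fresh TI than in fresh TII cells, by 1.59, 1.61, 2.01 and 1.45, and their cultured minus fresh TII differences were -0.05, -0.37, -0.004 and -0.04. The choice by r over these same arrays selected for such a pattern.

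**Figure D5:**
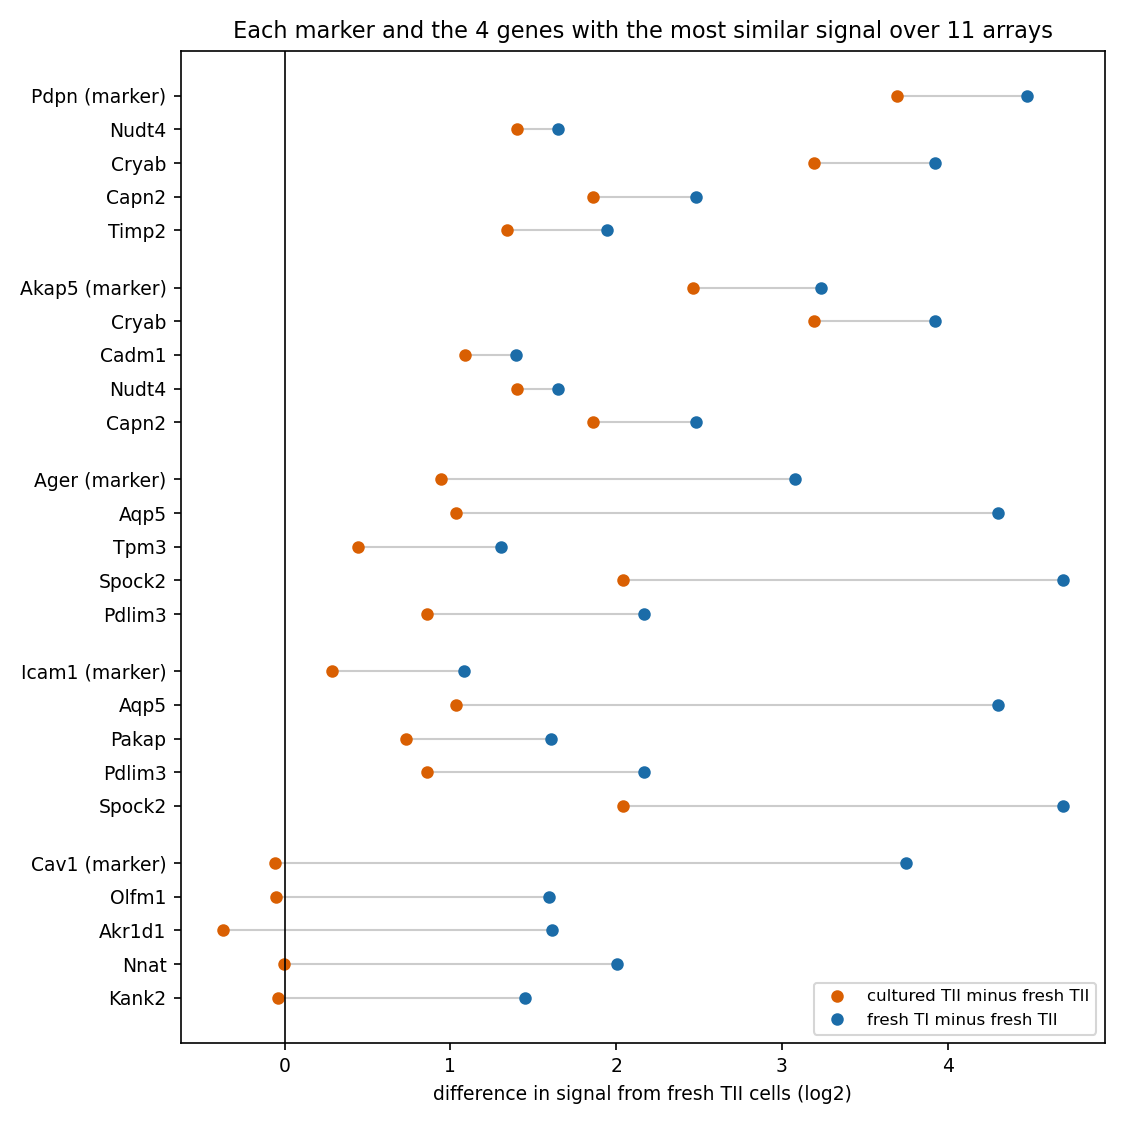
Log2 difference from fresh TII cells (horizontal axis) for each marker and the 4 genes most like it by Pearson r over 11 arrays, in cultured TII cells and in fresh TI cells. The cultured points lie close to the fresh TI points for the genes near Pdpn and Akap5, and near 0 for Olfm1, Nnat and Kank2, which are near Cav1.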

How the data were processed

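The labels describe total RNA from rat alveolar cells, a cDNA synthesis kit, biotin labelling and 1 Affymetrix array per sample. The deposited table holds 1 log2 value per probe set and array, as the authors processed it, and was used as deposited. The steps of summary and normalization are not given in the sources used here, nor is any detection call. Log2 was inferred, since the highest value, 13.16, is an intensity of 9172 if log2 and 520737 if a natural log, above the 65535 of a 16-bit scanner. Of 8799 probe sets, 59 controls were set apart and 8740 tested with no filter on dim signal: 7006 had 1 gene, 308 several and 1426 none. Genes were named through the platform annotation. The brightest probe set stood for a gene.

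limma 3.58.1 in R 4.3.3 (lmFit and eBayes, two-sided, 3 group means) was tested on simulated data first. Exact permutation tests used scipy 1.17.1. Intervals of shares are Fieller's. Arrays were not treated as paired by replicate number in the main fit. Deviations from group means correlated at -0.20 to 0.28 for 10 same-numbered pairs, against -0.27 to 0.23 for 30 others. With 3 or 4 arrays per group these deviations constrain each other, so the ranges cannot decide whether the numbers pair arrays. Beside the 5 markers, the text names up to 4 called genes per list with the greatest absolute difference, partners whose role is set beside a marker, and the 4 genes most like each marker. The members and lists were chosen with earlier results of these data known. Alternatives were 3 scalings, a filter on dim probe sets, another eBayes prior, fits on 2 groups, array weights, a replicate block, an adjusted p under 0.01, the mean of a gene's probe sets, and leaving out each array. The counts of the gene list around Pdpn are not reported here. Precision is limited by 3 or 4 arrays per group.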

Additional observations from a re-analysis of the deposited data

How the results depend on the processing

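All 6 marker probe sets stayed called in the same direction for fresh TI minus fresh TII and for cultured TII minus fresh TI in each of 20 alternatives. For cultured minus fresh TII the count was 5, and 3 under quantile normalization, under matching the median and standard deviation of the arrays, with an intensity trend and robust prior, and at an adjusted p under 0.01, each time through the loss of both Icam1 probe sets. Leaving out 1 array gave 3 to 5. With the replicate block the counts were 6, 3 and 6 in the order of fresh TI minus fresh TII, cultured minus fresh TII and cultured TII minus fresh TI, and the brighter Icam1 probe set stood at 0.30 (adjusted p = 0.055 in limma). Quantile normalization moved the share of Pdpn to 74.0%, that of the dimmer Icam1 probe set to 14.2% and that of the brighter one to 9.66%. The Cav1 difference in culture changed sign with array weights (0.0269, adjusted p = 0.91 in limma) and without cultured array 3 (0.10), with a share of 2.69%, and was not called in any alternative. Without 1 array, the difference ran between -0.17 and 0.10 and its share ran between -4.42% and 2.69%. For other genes, the alternatives covered 161 differences. These were up to 4 called genes per list and comparison, and the genes most like each marker. Of their 3196 values under alternatives, 96 lost the call. Some differences named above were not run, among them those of Nfkbia, Ifngr1, Cd82, Cd44 and Pecam1. Changes of sign numbered 0 where the main fit or the alternative called the difference. Differences called in neither were not checked for sign. The cause of these shifts was not tested. With array spreads matched, the median of all probe sets for fresh TI minus fresh TII was 0.04. Signal over background is unknown without detection calls, which bears on low signals such as Akap5 in fresh TII cells, Cxcl3 in cultured TII cells and S100a9 in cultured and fresh TII cells.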
